A study of Mus musculus with 12 samples.

Results

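Osteoclast cultures were compared between day 5 and day 1 of differentiation, which bracket the whole course from newly plated precursors to a culture with multinucleated osteoclasts. The comparison takes 8 of the 12 miRNA arrays of the series, the 4 of day 1 and the 4 of day 5, and 333 of the 696 mouse miRNAs on the array, those detected on at least 1 of these 8 arrays. Every culture was started from long bone marrow of male C57BL/6 mice aged 6 to 8 weeks, from which red cells had been lysed in an ammonium chloride buffer and cells carrying B220/CD45R or CD3, the markers of B and T lymphocytes, had been removed on magnetic columns. M-CSF, a survival factor for the precursors, and RANKL, the cytokine that commits them to the osteoclast lineage, were both present at 30 ng/ml for 1 day or for 5 days, so the groups differ in time under both cytokines and neither is an untreated control. The cultures are bulk populations, in which fewer cells of a type and less RNA per cell cannot be told apart. Each array carries 200 ng of total RNA from 1 culture, labeled with Cy3, and the 4 cultures of a day were independent.

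A mature miRNA is a short RNA that guides a silencing complex to messenger RNAs, mainly through its seed, the bases near its 5′ end that pair with the target. Messages that pair with the seed are degraded or translated less, so miRNAs that share a seed can share targets. During osteoclastogenesis, precursors of the monocyte lineage activate NF-κB, c-Fos and NFATc1, fuse into multinucleated cells and take on the genes of bone resorption, and loss of the enzymes that make miRNAs is known to impair this process. Names are given here as the array has them, in which a star marks the strand of the hairpin that was held to be the less abundant when it was named.

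The sequences that the results turn on are shown first, from 5′ to 3′, with the seed (bases 2 to 8) in capitals. They were read from RefSeq (GRCm38.p6), in which 264 of the 333 miRNAs were matched to a mature sequence. The first set shows the 5 members of the miR-99/100 and miR-125 families, which carry 1 seed per family and all of which were higher at day 5.
miR-99a: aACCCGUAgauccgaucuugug
miR-99b: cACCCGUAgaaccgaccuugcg
miR-100: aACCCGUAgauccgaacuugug
miR-125a-5p: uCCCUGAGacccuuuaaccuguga
miR-125b-5p: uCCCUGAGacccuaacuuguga

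The next set shows the let-7 and miR-29 members that rose, which differ within a family by a few bases outside the seed.
let-7d: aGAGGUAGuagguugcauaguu
let-7e: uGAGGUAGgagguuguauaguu
miR-98: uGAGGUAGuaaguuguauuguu
miR-29a: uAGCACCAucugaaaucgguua
miR-29b: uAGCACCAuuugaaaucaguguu

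The third set shows 5 miRNAs that were detected at day 5 on all arrays and at day 1 on none, of which miR-96 and miR-182 differ in the last base of the seed.
miR-489: aAUGACACcacauauauggcagc
miR-455: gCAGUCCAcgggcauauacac
miR-96: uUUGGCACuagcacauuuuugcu
miR-182: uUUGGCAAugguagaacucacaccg
miR-183: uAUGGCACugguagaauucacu

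The fourth set shows miRNAs that share a seed, of which 1 or more rose and 1 fell.
miR-200b: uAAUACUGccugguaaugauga
miR-429: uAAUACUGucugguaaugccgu
miR-200c: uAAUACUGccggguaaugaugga
miR-301a: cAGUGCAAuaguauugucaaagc
miR-721: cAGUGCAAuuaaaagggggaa

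The last set shows miRNAs among the largest falls of those detected on all 8 arrays, miR-3474, which was detected on no day 5 array, and the erythroid miR-451. Several of them are rich in G.
miR-188-5p: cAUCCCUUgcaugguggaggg
miR-494: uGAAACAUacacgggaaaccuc
miR-680: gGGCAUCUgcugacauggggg
miR-705: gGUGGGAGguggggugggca
miR-2137: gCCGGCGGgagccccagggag
miR-3474: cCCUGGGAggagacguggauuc
miR-451: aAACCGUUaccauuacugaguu

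Between day 1 and day 5, 148 of the 333 miRNAs changed, 77 of them upward and 71 downward. A miRNA is said to have risen or fallen where limma's adjusted p was under 0.01 and the means of the log2 values differed by more than 1, that is by more than 2-fold. These counts are 44.4% of the miRNAs tested, 23.1% for rises and 21.3% for falls, and every share given for a group of miRNAs below is to be read against them. A further 36 miRNAs passed the adjusted p with a change of 2-fold or less, and 44 differed by more than 2-fold without passing it. For 209 miRNAs (62.8%) the 4 arrays of day 1 and the 4 of day 5 did not overlap, which holds for all 148 that changed. Permuting the arrays over both days, the smallest exact two-sided p is 0.0286, reached by these 209 miRNAs (0.0455 after Benjamini-Hochberg adjustment over 333). For 24 of the rises and 25 of the falls no array of 1 day detected the miRNA, so that the size of change rests on the floor. Against the lowest detected signals 24 and 19 of these differed by more than 2-fold, and against the stricter limit described below 12 and 7. Of the 152 miRNAs detected on all 8 arrays, 41 rose and 19 fell.

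Values are quantile normalized, so a change is relative to the other miRNAs of the same array and says nothing of the total. Before normalization the summed signal was 1.46e+06 to 1.99e+06 units on the day 1 arrays and 1.31e+06 to 1.57e+06 on the day 5 arrays. With 75th percentile scaling instead, the percentile taken over the 152 miRNAs detected on all 8, the median change of all miRNAs moved by -0.66, 44 miRNAs rose and 75 fell, and the share of rises among the changes was 37.0% against 52.0%. Without normalization 46 rose and 74 fell (38.3% rises). With these, the 75th percentile of all 696 miRNAs, quantile normalization over all 696 and the values reported here, 5 scalings were compared. The arrays of day 1 detected 233 to 276 miRNAs and those of day 5 186 to 269, the lowest number being that of day 5 replicate 4. A mark of detection, as the scanner software sets it, is what "detected" means throughout. All 8 arrays lay on 1 slide in 1 scan, but those of day 1 filled its first row and those of day 5 its second, so slide row and day cannot be told apart. In a principal component analysis the first component held 72.3% of the variance, on which day 1 lay at -30.0 to -25.2 and day 5 at 26.1 to 29.7.

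**Figure D1:**
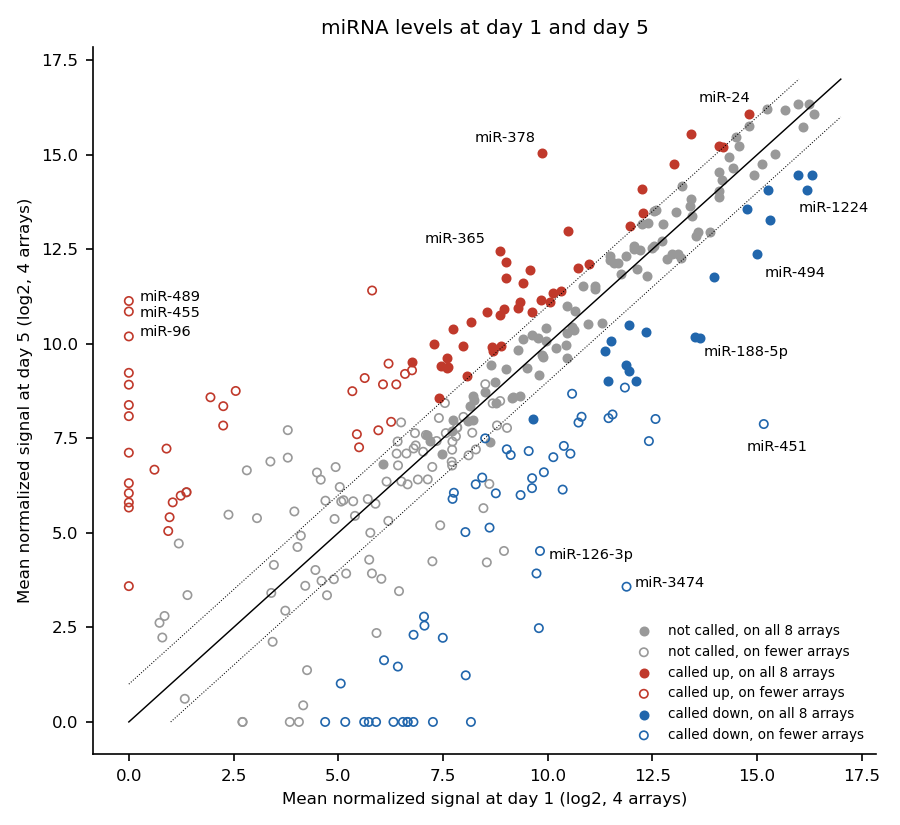
Mean normalized signal at day 5 (vertical axis, log2) against day 1 (horizontal axis, log2) for the 333 miRNAs, each point 1 miRNA and colored by whether it rose, fell or did neither. The 77 rises lie above and the 71 falls below the diagonal, and the points along both axes are miRNAs at the floor of 1 (0 on the log2 scale) on the arrays of a day.

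Among the miRNAs detected on all 8 arrays, miR-378, which is processed from an intron of the gene for the metabolic coactivator PGC-1β, had the largest rise. Its normalized signal (log2) was 9.81, 9.90, 9.71 and 10.00 on the day 1 arrays and 15.03, 15.03, 15.08 and 15.03 on the day 5 arrays. The days are separated by far more than the spread within either of them. The rise came to 5.19 ± 0.09 (log2, SE), or 36.5-fold, with an adjusted p of 4.46e-09 (limma). The other strand of this hairpin, miR-378*, was detected on 1 day 1 array and on all 4 of day 5, and rose by 5.60 on the same scale.

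The next rise was that of miR-365, whose hairpin lies beside that of miR-193b. It measured 8.98, 8.67, 9.08 and 8.76 at day 1 and 12.35, 12.44, 12.38 and 12.69 at day 5 (log2), a difference of 3.59 ± 0.13 or 12.1-fold (limma, adjusted p = 3.19e-07). The arrays of the days did not overlap. Its neighbor miR-193b was below detection on all day 1 arrays and detected on all of day 5, but its day 1 values were spread widely, from 0 to 5.99, and the change of 3.92 did not pass the test (limma, adjusted p = 0.0297), though it did without day 1 replicate 2 (adjusted p = 0.00675). The related miR-193, detected on 1 day 1 array, rose by 3.46 ± 0.54.

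Of the 12 largest rises among miRNAs detected on all 8 arrays, 4 belong to the miR-99/100, miR-125 and let-7 families described below. Both strands of miR-674 rose, miR-674* by 3.17 and miR-674 by 2.04. Likewise miR-199a-5p rose by 2.76 and miR-199a-3p by 2.28. The hairpins of miR-199a lie within dynamin genes and are known from mesenchymal cells. The signal of miR-326, described in neurons and tumors, was 7.74, 7.61, 7.79 and 7.83 at day 1 and 10.13, 10.17, 10.59 and 10.68 at day 5 (log2), a rise of 6.30-fold. For miR-185 the mean rose from 9.57 ± 0.07 to 11.95 ± 0.05 (log2, SD, n = 4), with no overlap and the smallest standard error of these 12 rises (0.07). The last of the 12, miR-5097, rose by 2.20 ± 0.24.

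**Figure D2:**
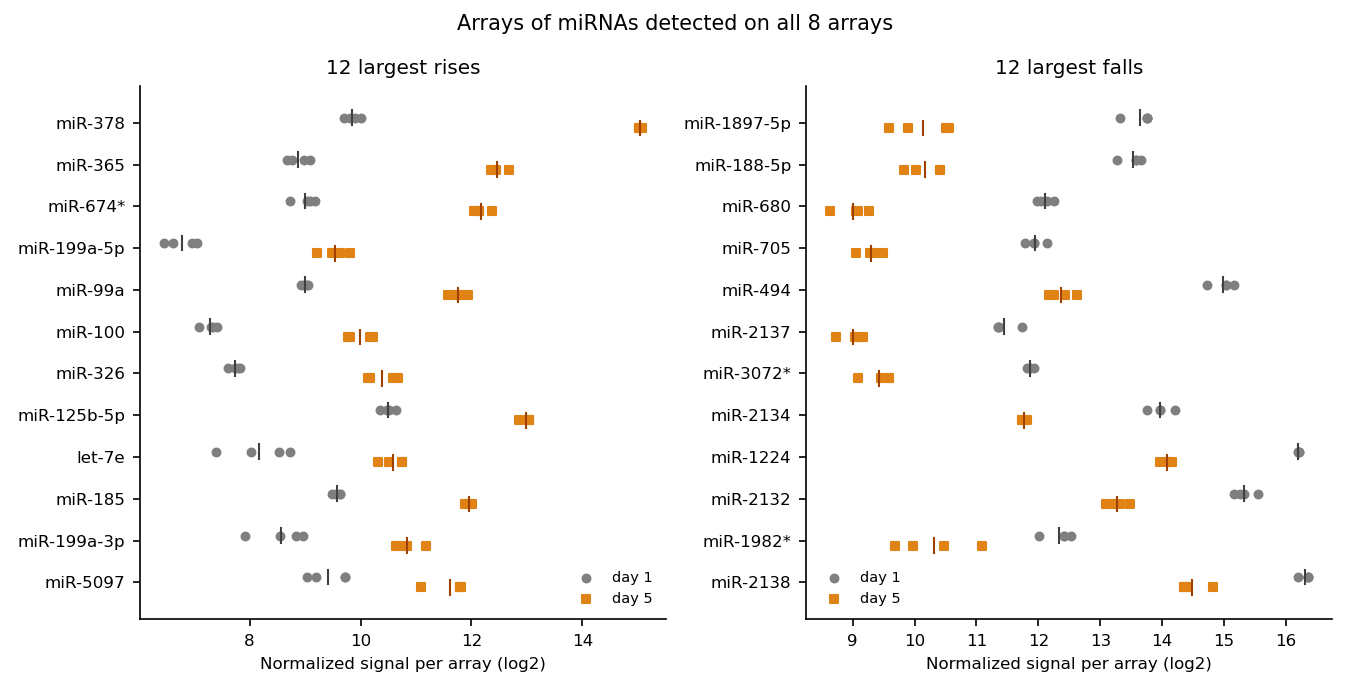
Normalized signal of each array (log2, horizontal axis) for the 12 largest rises (left) and 12 largest falls (right) among miRNAs detected on all 8 arrays, with day 1 as gray circles, day 5 as orange squares and the mean of each day as a vertical bar. The days do not overlap for any of the 24, and miR-378 stands apart with a rise from a mean of 9.85 to 15.04.

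On all arrays of day 5 and on none of day 1, 8 miRNAs were detected. For these a fold has only a lower bound, taken against the lowest detected signal of the day 1 arrays. That signal lay at the floor on 3 of the 4, so this first bound stays close to the floored change and can overstate the fold. A stricter one is given against the 5th percentile of the detected signals. For a miRNA not detected on a day, a fold given as at least so much, with no bound named, is by the first bound. For miR-489, a miRNA known from quiescent muscle stem cells, all 4 day 1 arrays were at the floor of 0 (log2) and the day 5 arrays gave 11.07, 11.09, 11.07 and 11.30. It was at least 1656-fold higher at day 5 by the first bound and at least 28.4-fold by the second (limma, adjusted p = 4.29e-11). A miRNA at the floor on all 4 arrays has no spread there, and its p rests on the spread of the other miRNAs.

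The cartilage-associated miR-455 was likewise at the floor at day 1 and gave 10.71, 11.02, 10.79 and 10.90 at day 5, at least 1366-fold higher, or 23.4-fold by the stricter bound. Its other strand, miR-455*, was at the floor at day 1 and between 7.96 and 8.28 at day 5. The 3 miRNAs of the miR-183 cluster, known from sensory organs, were all at the floor on the 4 day 1 arrays. At day 5, miR-96 gave 10.10, 10.13, 10.23 and 10.32, with bounds of at least 865-fold and 14.8-fold. For miR-182 the bounds were 444-fold and 7.61-fold, and for miR-183 357-fold and 6.12-fold. Of the p53-responsive miR-34 family, miR-34b-5p was between 0 and 4.39 at day 1, below detection, and between 8.13 and 8.79 at day 5, with bounds of 73.4-fold and 4.86-fold. Its cluster partner miR-34c was at the floor at day 1 and detected on 3 of 4 arrays at day 5. The separately encoded miR-34a measured 12.44, 12.48, 12.91 and 12.31 at day 1 and 13.58, 13.55, 13.44 and 13.48 at day 5 (log2), a 1.97-fold difference just short of 2-fold (limma, adjusted p = 5.52e-04), which passed 2-fold without day 1 replicate 3 (1.09, log2) or day 5 replicate 3 (1.01).

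The falls were led by miRNAs with high numbers and by miR-188-5p. The signal of miR-1897-5p was 13.75, 13.75, 13.32 and 13.75 at day 1 and 10.52, 10.56, 9.90 and 9.59 at day 5 (log2), a fall of 11.4-fold. For miR-188-5p the arrays gave 13.58, 13.66, 13.28 and 13.58 at day 1 and 10.41, 10.41, 10.03 and 9.83 at day 5, a difference of -3.36 ± 0.17 or 10.2-fold (limma, adjusted p = 1.88e-06). Neither miRNA had overlapping days. The signals of miR-680 (log2 change -3.09), miR-705 (-2.65) and miR-494 (-2.62), the last a miRNA of the imprinted Dlk1-Dio3 region, fell by more than 6-fold.

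Further down, miR-2137 fell by 5.44-fold, miR-3072* by 5.41-fold, miR-2134 by 4.61-fold and miR-1982* by 4.10-fold. At day 1 spots of miR-1224, miR-2132 and miR-2138 were saturated on all 4 arrays, so their falls are bounds. The fall of miR-1224 was at least 4.34-fold, that of miR-2132 at least 4.12-fold and that of miR-2138 at least 3.57-fold. On the array the names of miR-2132, miR-2134 and miR-2138 carry the tag of an older release of the miRNA registry.

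On all arrays of day 1 and on none of day 5, 14 miRNAs were detected. The signal of miR-3474 was 12.05, 12.53, 11.07 and 11.89 at day 1 and 4.61, 5.01, 4.69 and 0.00 at day 5, all 4 of the latter below detection. It was at least 100.3-fold lower at day 5, or 37.2-fold by the 5th percentile (limma, adjusted p = 4.59e-04). For miR-1967 the bounds were 23.1-fold and 8.73-fold, for miR-126-3p 22.4-fold and 8.89-fold, and for miR-3107 10.9-fold and 7.79-fold. The bounds of miR-1966 (9.16 and 2.84) and miR-711 (8.41 and 2.60) were lower.

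Families of shared seed were followed next. All 5 members of the miR-99/100 and miR-125 families rose, with a median change of 2.54 (log2) against 0.12 over all miRNAs tested, and all 5 rose under each of the 5 scalings. The miR-99 family is known to target mTOR, and miR-125b to hold back differentiation and support survival of hematopoietic progenitors. The arrays of miR-99a gave 8.93, 8.98, 9.04 and 9.06 at day 1 and 11.58, 11.69, 11.81 and 11.93 at day 5, and those of miR-100 gave 7.34, 7.31, 7.41 and 7.09 at day 1 and 9.77, 9.81, 10.17 and 10.23 at day 5. For miR-125b-5p they gave 10.47, 10.63, 10.52 and 10.36 at day 1 and 12.86, 13.03, 13.03 and 13.03 at day 5. In each case all day 5 arrays were above all day 1 arrays, by 6.75-fold, 6.54-fold and 5.64-fold on average. The members that share a transcript with let-7e, miR-99b and miR-125a-5p, rose by 2.54 ± 0.15 and 1.95 ± 0.31 (log2). At day 1 miR-99b was detected on 2 arrays, and its change ran from 1.305 to 8.218 over the alternatives, called in all.

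All 9 let-7 members, which restrain proliferation and mark differentiated cells, were higher at day 5 (7 and 8 of 9 with 75th percentile scaling over those detected throughout and without normalization) and 3 of them rose, with a median of 0.95. The 3 were let-7e (2.42, log2), miR-98 (1.27) and let-7d (1.15). Without day 1 replicate 4 the change of let-7d was 0.999, just under 2-fold. Without day 1 replicate 2, or without day 1 replicate 3, 5 members rose, and with 75th percentile scaling over those detected throughout 1 did. No fold is given for let-7f, which was saturated on 1 day 1 array and on all 4 of day 5, and let-7a was 1.93-fold higher (limma, adjusted p = 0.00226). The remaining 4 members differed by 0.17 to 0.46.

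The miR-29 family, which targets collagens and other matrix genes and has been described as promoting osteoclast formation, had 2 of 3 members that rose, and 1 of 3 with 75th percentile scaling over those detected throughout or without normalization. The arrays of miR-29b lay between 11.86 and 12.62 at day 1 and between 13.96 and 14.29 at day 5, a rise of 3.59-fold (limma, adjusted p = 6.01e-05). For miR-29a the values were 14.29, 14.21, 14.10 and 14.10 at day 1 and 15.16, 15.25, 15.31 and 15.08 at day 5, and for miR-29c 12.35, 12.22, 12.31 and 12.13 at day 1 and 13.16, 13.21, 13.16 and 13.21 at day 5. Both were separated cleanly between days, but their changes of 1.02 and 0.93 lie on either side of 2-fold. That of miR-29a was 0.98 without day 1 replicate 3 and 0.99 without day 1 replicate 4, and so no longer past 2-fold, and its call was also lost under both 75th percentile scalings and without normalization.

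Of the miR-23, miR-27 and miR-24 group, miR-23b, miR-27b and miR-24 rose, by 4.39-fold, 3.30-fold and 2.43-fold, the last not past 2-fold with 75th percentile scaling over those detected throughout or without normalization. Of the copies from the other cluster, miR-27a differed by 0.64 ± 0.08 (log2), and no value is given for miR-23a, which was saturated on 3 day 1 arrays and all 4 of day 5. The difference between the copies was not tested, and mature miR-24 is the same RNA from both clusters. In the miR-30 family all 5 members were higher at day 5 (3 of 5 with 75th percentile scaling over those detected throughout), with a median of 0.74, and miR-30a rose by 1.31. No miR-30 member passed under 75th percentile scaling over those detected throughout or without normalization.

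The miR-17-92 cluster and its relatives, which promote proliferation, had a median of -0.60 and 7 of 10 members lower at day 5 (7 or 8 under the 5 scalings). The arrays of miR-92a gave 13.81, 13.81, 13.96 and 13.92 at day 1 and 12.91, 13.10, 12.86 and 12.98 at day 5, a 1.88-fold decrease (limma, adjusted p = 6.46e-05). For miR-25, which shares its seed, they gave 13.16, 13.21, 13.21 and 13.21 at day 1 and 12.26, 12.28, 12.22 and 12.31 at day 5, a 1.90-fold decrease (adjusted p = 1.49e-05). Both decreases had no overlap of days and were short of 2-fold here, and both passed it with 75th percentile scaling over those detected throughout or without normalization. Within the same transcript miR-19a rose by 1.07 ± 0.18, an increase of 0.94 without day 1 replicate 4 that was no longer past 2-fold, and it passed under 2 of the 5 scalings. The miR-15/16 family, which slows the cell cycle, had 0 of 7 members that changed by limma under any of the 5 scalings, 3 with an unadjusted p under 0.05, and changes from -0.50 to 0.53. One of them, miR-16, was 1.33-fold lower (limma, adjusted p = 0.00619). Of the 2 miR-26 miRNAs 0 changed by limma, 0 of them with an unadjusted p under 0.05.

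**Figure D3:**
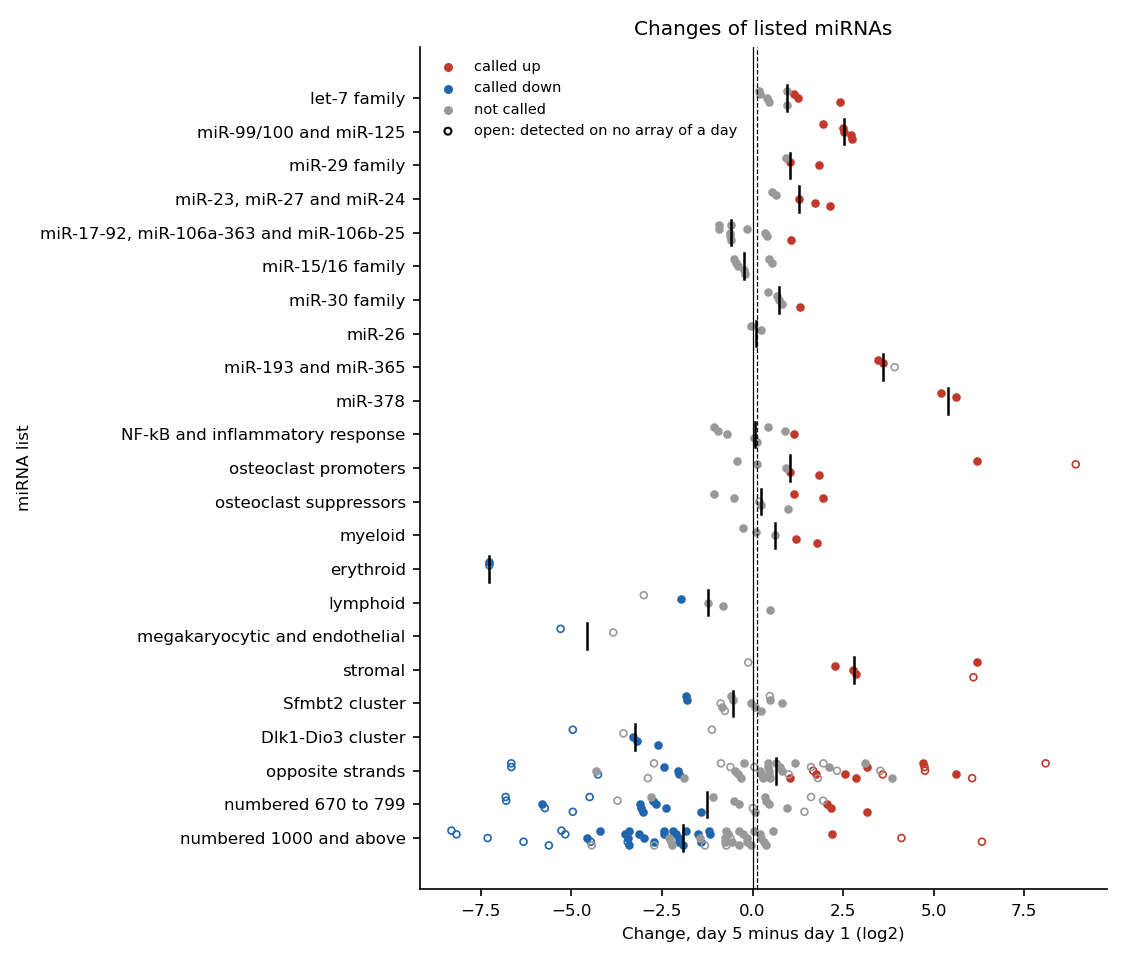
Change from day 1 to day 5 (horizontal axis, log2) of each tested miRNA of 23 groups, 1 group per line, with rises in red, falls in blue and the others in gray. Open points were detected on no array of a day, so that their position depends on the floor. Black bars are group medians, and the dashed line is the median of all 333 miRNAs at 0.12. The miR-99/100 and miR-125 group lies wholly to the right, and the lists of high numbers at the bottom lie mostly to the left.

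Among miRNAs of the NF-κB and inflammatory response, which RANKL signaling engages, 1 of 8 tested rose and 0 fell, and the group's median was 0.08. With 75th percentile scaling over those detected throughout and without normalization 0 rose and 1 fell, and the medians were -0.13 and -0.08. The arrays of miR-146a, a feedback inhibitor of NF-κB signaling, gave 11.79, 11.86, 12.17 and 12.05 at day 1 and 12.69, 12.77, 13.58 and 13.39 at day 5, a rise of 2.20-fold (limma, adjusted p = 0.00343). The days did not overlap, but day 5 replicates 1 and 2 lay lower than replicates 3 and 4. Without day 5 replicate 3 the change was 0.98 (log2), and without day 1 replicate 1 the adjusted p was 0.0106, so the call was lost in both. The signal of miR-146b, of the same seed, was 1.63-fold lower at day 5 (limma, adjusted p = 0.00667). The macrophage-activation miRNA miR-155, which opposes osteoclast formation by targeting MITF, gave 8.13, 7.96, 8.43 and 7.93 at day 1 and 7.19, 7.37, 7.36 and 6.28 at day 5. Its 2.09-fold decrease had no overlap of days and an adjusted p of 0.01003, just above the threshold. For miR-132 the decrease was 1.93-fold (adjusted p = 0.00339), which passed 2-fold without day 1 replicate 1 (-1.06, log2) or without day 5 replicate 2 (-1.01). For miR-21, saturated on both days, no fold is given.

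Groups taken from earlier work on osteoclasts were counted as well. Of 7 tested miRNAs described as promoting osteoclast formation 4 rose and 0 fell (median 1.02), and of 7 described as suppressing it 2 rose and 0 fell (median 0.22). Under the 5 scalings 2 to 4 of the promoters rose and 0 or 1 fell, and 1 to 3 of the suppressors rose and 0 fell. The promoters that rose were miR-29a, miR-29b, miR-183 and miR-214. The signal of miR-214 was 0.00, 5.82, 4.39 and 0.00 at day 1 and 9.0, 9.36, 8.79 and 7.86 at day 5, detected on 1 and 3 arrays. Its day 1 spread is as wide as many changes, and the call (limma, adjusted p = 0.00613) was lost when any of day 1 replicates 1 and 4 and day 5 replicates 1, 2 and 3 was left out, with adjusted p up to 0.0190. The promoter miR-148a was 1.36-fold lower. Of the suppressors, miR-125a-5p and miR-146a rose.

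Erythroid, megakaryocytic and endothelial, and stromal markers moved with the day. The erythroid miRNAs, which accompany hemoglobin synthesis in red cell precursors, made up 1.82 to 2.79% of all signal at day 1 and 0.0095 to 0.0193% at day 5. The arrays of miR-451 gave 15.44, 14.82, 15.31 and 15.08 at day 1 and 8.13, 8.26, 7.23 and 7.89 at day 5 (log2), a fall of 156-fold (limma, adjusted p = 2.91e-07). Its cluster partner miR-144 was detected on 2 day 1 arrays and at the floor on all day 5 arrays, at least 4.89-fold lower and 1.51-fold by the stricter bound. Both tested erythroid markers thus fell, and the other 2 of the list are not on the array.

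The megakaryocytic and endothelial pair, miR-126-3p and miR-126-5p, made up 0.0414 to 0.0688% of the signal at day 1 and 0.00073 to 0.00244% at day 5. The arrays of miR-126-3p gave 9.93, 10.00, 9.97 and 9.36 at day 1 and 4.46, 5.24, 4.97 and 3.41 at day 5, the latter all below detection. Of 5 lymphoid markers 1 fell, miR-181c (-1.97 ± 0.24), with 0 to 2 falls under the 5 scalings, and 1 was higher at day 5 (0.47, log2). The group's share went from a range of 0.167 to 0.264% to an overlapping one of 0.129 to 0.188%. The lymphocyte miRNA miR-150 was detected on all day 1 arrays, at 7.54, 6.53, 7.71 and 7.21, and on none of day 5, at 2.45, 4.28, 3.20 and 7.07. Its days overlapped, and it did not pass the test (limma, adjusted p = 0.0279), but it did without day 5 replicate 4 (-2.79, log2). Signal of lymphoid miRNAs was thus present on both days, and that of erythroid miRNAs mainly at day 1. Red cells had been lysed and B220/CD45R and CD3 cells depleted before culture, and which cells gave this signal was not tested.

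The stromal markers moved the other way, from 0.0331 to 0.0538% of the signal at day 1 to 0.216 to 0.296% at day 5, and 5 of 6 rose (median 2.81), 4 of 6 under each of the other 4 scalings. The arrays of miR-199a-5p gave 7.05, 6.96, 6.62 and 6.45 at day 1 and 9.49, 9.62, 9.21 and 9.81 at day 5 (log2), without overlap. The smooth muscle and fibroblast miR-143 was below detection at day 1, between 0 and 5.05, and between 7.56 and 8.73 at day 5, at least 50.4-fold higher and 4.13-fold by the stricter bound. The rise of miR-199b*, detected on 1 day 1 array and on all 4 of day 5, was 2.86 ± 0.34. The sixth marker, miR-145, encoded beside miR-143, was detected on 1 of the 8 arrays. The part of the erythroid, megakaryocytic, lymphoid and stromal signal in the other changes was not tested.

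The myeloid list includes miR-223, the granulocyte and monocyte miRNA, which was saturated on both days. Since miR-223 held 56.5 to 77.3% of the signal of the list, its share of all signal is given without it, 1.54 to 2.17% at day 1 and 2.39 to 3.32% at day 5. Of its 5 tested members 2 rose, both strands of miR-342 (0 to 2 under the 5 scalings). The arrays of miR-342-3p gave 12.26, 12.44, 12.44 and 11.97 at day 1 and 13.48, 13.66, 13.28 and 13.44 at day 5, a rise of 2.28-fold that did not pass with 75th percentile scaling over those detected throughout or without normalization. The call of miR-342-5p (limma, adjusted p = 0.00667) was lost when any of day 1 replicates 1 and 2 and day 5 replicates 1, 2 and 3 was left out, with adjusted p up to 0.0213. The hematopoietic miR-142-3p overlapped between days and differed by 0.61 (adjusted p = 0.0413).

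Genomic neighbors were compared next. Of 44 clusters of tested miRNAs 17 held at least 2 members that changed, in 16 of them in 1 direction, while the changes of all members, called or not, had both signs in 19 of the 44. These clusters are not independent. A miRNA with several places counts at each, as miR-2134 and miR-689 do on chromosomes 1 and 16. Members can also be both strands of 1 hairpin. Positions are those of the array annotation (mm9). The miR-182, miR-96 and miR-183 hairpins at chr6:30115934-30119694 all rose, as did the miR-200b, miR-200a and miR-429 hairpins at chr4:155428068-155429855, which are known for keeping cells epithelial. Of the latter, miR-200b was below detection on all day 1 arrays, between 4.61 and 5.64, and between 8.58 and 8.90 at day 5, at least 10.6-fold higher (5.43-fold by the stricter bound). The bounds of miR-429 were 48.0-fold and 2.89-fold, and without day 5 replicate 4 its adjusted p was 0.0250. The bounds of miR-200a were 103-fold and 1.76-fold.

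At chr13:63401842-63402580 all 4 entries of the miR-23b, miR-27b and miR-24-1 cluster rose, and at chr8:86732466-86732795 the 2 entries of miR-24 of the miR-23a cluster did. At chr17:17967165-17967840 miR-99b, let-7e and miR-125a-5p rose, while the other strand of the last, miR-125a-3p, was lower at day 5 with overlapping days (-1.25, log2, adjusted p = 0.0660). The miR-17-92 cluster at chr14:115442916-115443718 had 1 of 9 entries that changed. At chr7:3218648-3220801, in the miR-290 cluster of pluripotent cells, miR-290-5p fell by 7.06-fold and miR-292-5p by 10.2-fold. The size of the latter is uncertain. It was not detected on day 5 replicates 2 and 4, and its change ran from -9.68 to -1.29 (log2) over the alternatives, called in all. The other 2 entries of the cluster, each detected on a single array, were not called.

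The cluster at chrX:6814874-6825606 was the only one of the clusters of tested miRNAs with changes in opposite directions. Of its 8 entries 6 rose and 1 fell. The rises were miR-500 (1.23, log2), miR-362-5p (1.76), miR-362-3p (1.67), miR-532-5p (1.23), miR-532-3p (1.16) and miR-501-5p. The last was at the floor on all day 1 arrays and detected on 3 of day 5, at least 41.2-fold higher by the first bound but with no fold by the stricter one, and without day 5 replicate 4 its adjusted p was 0.0126. The fall was that of miR-188-5p described above, 10.2-fold. The rises of miR-500, miR-532-5p and miR-532-3p did not pass with 75th percentile scaling over those detected throughout or without normalization, and the fall of miR-188-5p did.

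**Figure D4:**
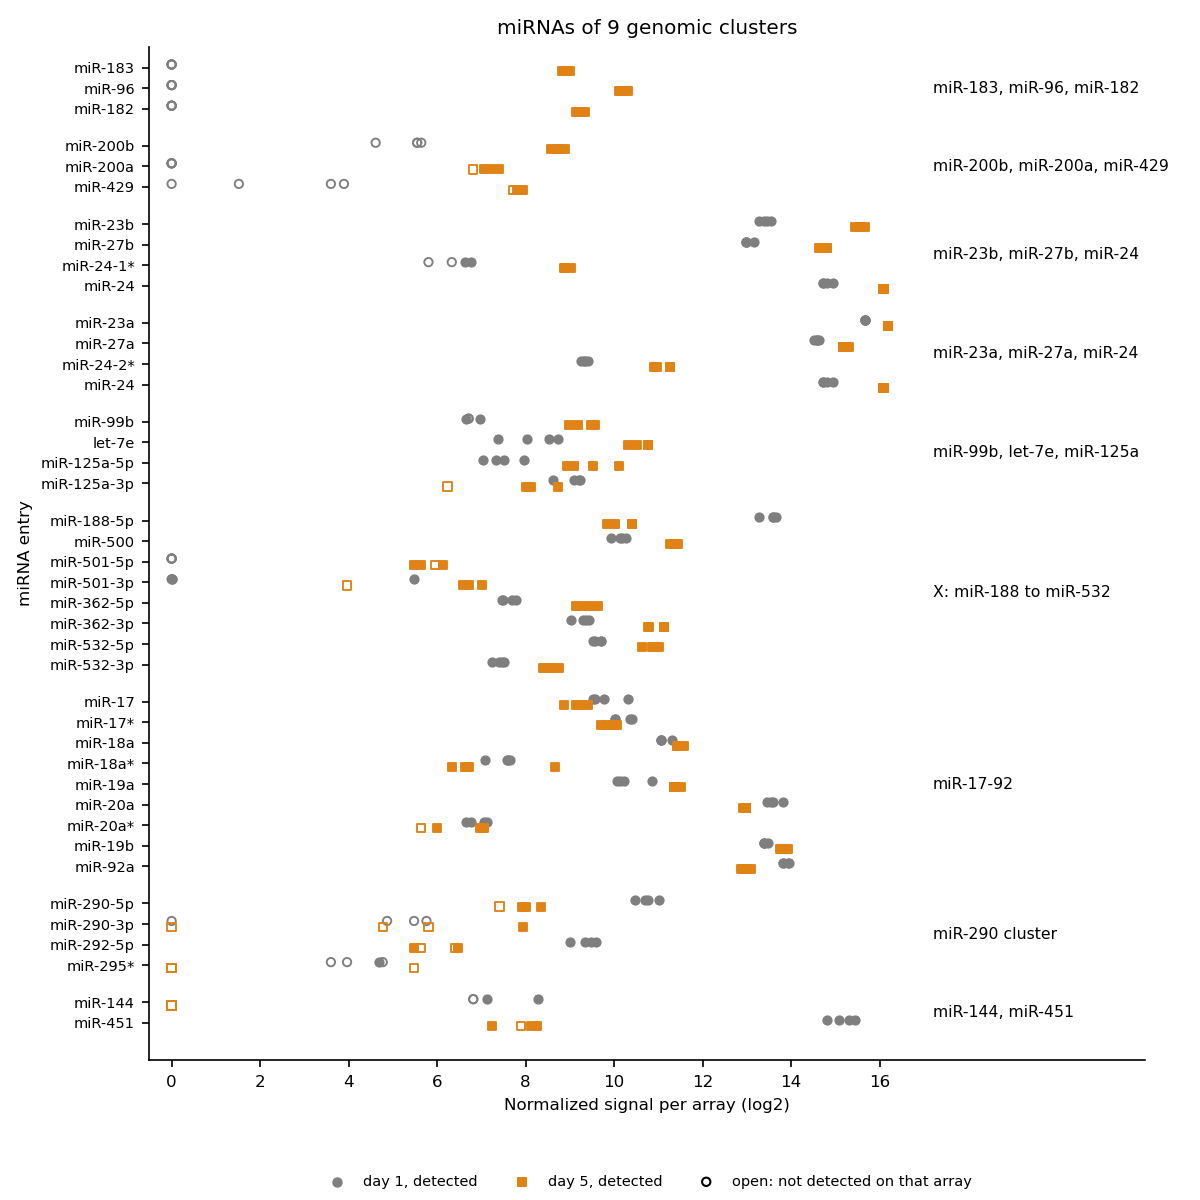
Normalized signal of each array (horizontal axis, log2) for the entries of 9 genomic clusters, with day 1 as gray circles and day 5 as orange squares. Open symbols were not detected on that array, and 0 is the floor. The miR-183 and miR-200b clusters sit at or below detection at day 1, miR-188-5p moves against its cluster, and the days overlap for 3 starred entries of miR-17-92.

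Both strands of a hairpin come from 1 precursor, but some mature miRNAs, such as miR-24, miR-30c and miR-92a, are made from more than 1 hairpin. Their pairs set a strand of 1 hairpin beside a signal that several can give, and miR-24 and miR-30c each enter more than 1 pair. Of 62 pairs 33 had both entries detected on all arrays of a day. In 22 of the 33 both strands changed with the same sign and in 11 with opposite signs, and in 0 were they called in opposite directions. Both strands changed in 9 pairs, 8 of them upward. The pairs that rose were those of miR-199a, miR-24 (with miR-24-1* and with miR-24-2*), miR-342, miR-362, miR-378, miR-532 and miR-674. For miR-24 the stars rose by 2.54 and 1.76 against 1.28 for miR-24 itself (log2), and miR-24-1* was detected on 2 day 1 arrays. The pair that fell was miR-135a, of which miR-135a-1* fell by 4.17-fold, while miR-135a itself was at least 4.25-fold lower (1.31-fold by the stricter bound) and lost its call when any 1 of the 8 arrays was left out, with adjusted p between 0.0125 and 0.0258. Among pairs with 1 changed strand, miR-92a-2* was at the floor on all day 5 arrays, at least 3.21-fold lower but with no fold by the stricter bound, beside a 1.88-fold decrease of miR-92a. The fall of miR-30c-2*, at least 4.21-fold (1.30-fold by the stricter bound), was lost without day 1 replicate 4 or day 5 replicate 3 (adjusted p = 0.0102 and 0.0140, limma). Of all 51 starred entries tested 13 rose and 6 fell, with a median of 0.63 (0.47 with those detected on no array of a day at their bound), which turned to -0.24 and -0.19 with 75th percentile scaling over those detected throughout and without normalization. Besides miR-455*, the rises included miR-30a*, below detection at day 1 and detected on 3 arrays at day 5 (at least 49.2-fold, 1.29-fold by the stricter bound), and the falls included miR-150*, at the floor on all day 5 arrays (at least 3.21-fold, and no fold by the stricter bound).

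**Figure D5:**
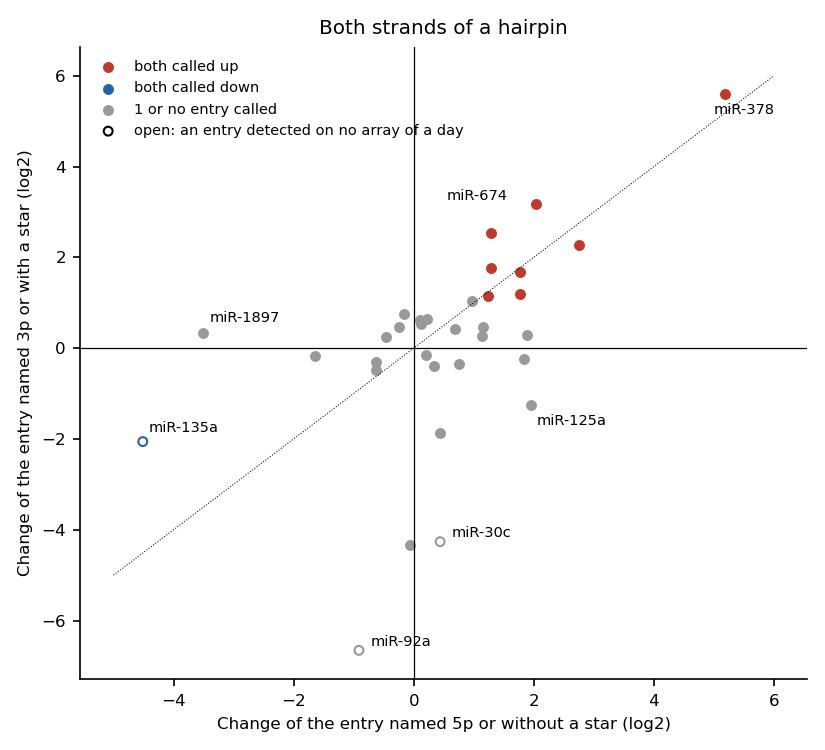
Change from day 1 to day 5 of both strands of 33 hairpin pairs, the entry named 5p or without a star on the horizontal axis and the entry named 3p or with a star on the vertical axis (both log2). Red marks pairs of which both rose and blue the pair of which both fell, open points have an entry detected on no array of a day, and the dotted line marks equal change. The 8 red pairs lie in the upper right and 11 pairs lie in the quadrants of opposite sign.

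At least 3 tested miRNAs shared each of 12 seeds, and under 2 of these seeds members changed in opposite directions. Of those with the seed AAUACUG, miR-200b and miR-429 rose and miR-200c, whose hairpin lies on another chromosome, fell. The arrays of miR-200c gave 7.58, 7.80, 7.88 and 7.79 at day 1 and 6.47, 6.77, 5.41 and 5.59 at day 5, a fall of 3.25-fold (limma, adjusted p = 0.00229), with an adjusted p of 0.0106 without day 1 replicate 2. It was detected on 2 day 5 arrays and called under 16 of 25 alternatives. Of those with the seed AGUGCAA, miR-301a rose by 1.10 ± 0.24 and miR-721 fell by 6.67-fold. The arrays of miR-721 gave 10.85, 10.79, 10.63 and 10.96 at day 1 and 8.48, 8.23, 8.71 and 6.86 at day 5, without overlap. The call of miR-301a (adjusted p = 0.00518) was lost when any of day 1 replicates 1 and 4 and day 5 replicates 1, 3 and 4 was left out. Of those with CAGUGCA, miR-152, detected on 2 day 1 arrays, rose by 6.10-fold beside the 1.36-fold decrease of miR-148a.

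The direction of change went with the number of a miRNA, which follows the order of its discovery. Of 59 tested miRNAs numbered 1000 and above, 30 fell and 3 rose, with a median of -1.90 (-1.21 with the 17 that were detected on no array of a day set at their bound), against 0.12 over all miRNAs (0.07 with bounds). Of 30 numbered from miR-670 to miR-799, 13 fell and 3 rose, with a median of -1.25 (-0.64 with bounds). In both groups, most of those detected on no array of a day (17 and 10) were detected at day 1 only. They entered the comparison through day 1 alone, and the counts of falls include those of them that fell. Under the 5 scalings the falls numbered 26 to 30 in the first group and 8 to 13 in the second. The rises in the first were miR-5097, miR-1983 and miR-1981, of which miR-1981 was detected on 1 of 8 arrays and lost its call without day 5 replicate 4 (adjusted p = 0.0677) and without each of 3 other arrays. Those in the second were miR-674, miR-674* and miR-700 (4.48-fold, detected on 2 day 1 arrays). Among its falls miR-762 was at the floor on all day 5 arrays, at least 3.54-fold lower (1.10-fold by the stricter bound). The rise of miR-1983, below detection at day 1, was at least 59.3-fold (1.90-fold by the stricter bound).

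The base composition of the probes went the same way. Among miRNAs detected on all 8 arrays, the median GC content of the probe sequence was 69.2% for the 19 that fell, 47.4% for the 41 that rose and 47.4% for the 92 others, and the median probe lengths were 14, 19 and 18 bases. Over all 333 the medians were 60.0%, 47.4% and 50%. Across the 152 miRNAs the correlation of probe GC content with the change was r = -0.405 (Spearman's rho = -0.334), a description across miRNAs measured on the same arrays. The same medians by mature sequence are not given, because RefSeq gave a sequence for 57.9% of the 19 that fell and 82.9% of the 41 that rose. The part of probe composition in the falls was not tested.

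Of the imprinted clusters, the Dlk1-Dio3 region was followed by a list of 49 names. The list leaves out some tested entries placed among its members, and miR-3072*, which lies near miR-134. Of the list 6 miRNAs were tested, of which 4 fell and 0 rose. The falls included miR-494, with 15.03, 15.16, 14.72 and 15.03 at day 1 and 12.44, 12.26, 12.62 and 12.17 at day 5 (log2), and miR-134, with 10.06, 10.13, 9.52 and 9.93 at day 1 and 7.37, 7.34, 6.36 and 5.34 at day 5. Neither miRNA had overlapping days, miR-770-3p was at least 2.73-fold lower with no fold by the stricter bound, and the count was 1 to 4 under the 5 scalings. The Sfmbt2 list, taken by name, had 13 of 41 tested. Of these 2 fell, with 1 to 4 falls under the 5 scalings. They were miR-466c-5p (3.56-fold), detected on 1 day 5 array and called under 18 of 24 alternatives, and miR-669n (3.52-fold). The array annotation places 11 tested members, these 2 among them, at chr2:10388629-10436289, while the RefSeq sequence of miR-669n lies on chromosome 3.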

How the data were processed

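RNA of 4 cultures at day 1 and 4 at day 5 was measured on 8 single-color Agilent miRNA arrays. The day 3 arrays, on another slide, entered neither the normalization nor the fit. The scanner files deposited by the authors were written by Feature Extraction 9.5.3.1 and hold linear intensity values after background subtraction, not yet normalized between arrays. Per the file headers they hold, for each miRNA, a total signal summed over its probes and a mark of detection. A table deposited by the authors of quantile normalized log2 values from GeneSpring GX was used as an alternative. Positions are those of the array annotation (mm9), and sequences and their names come from RefSeq (GRCm38.p6).

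For the 333 miRNAs detected on 1 or more of the 8 arrays, total signals underwent quantile normalization (limma 3.58.1, R 4.3.3), were raised to a floor of 1 where lower (248 of 2664 values, 9.31%) and converted to log2. The fit by lmFit and eBayes had a mean per day, and a miRNA was called where the adjusted p (Benjamini-Hochberg over 333) was under 0.01 and the means differed by more than 1. Quantile normalization of detected miRNAs, log2 values, 0.01 and 2-fold come from the study's methods, which normalized all 3 days and used a one-way analysis of variance with no adjustment named. An exact two-sided test that permutes the 8 arrays was run for each miRNA. A miRNA not detected on any array of a day is given as a bound against the lowest detected signal of each array and, more strictly, against the 5th percentile of the detected signals, each array taking its own value where higher. A miRNA saturated on all arrays of a day and none of the other is given as at least its measured fold, and no fold is given where both days had saturated arrays. Groups of miRNAs are described by counts and medians, with no test. Genomic clusters join tested miRNAs within 10 kb. The fit was tested on simulated data with known changes. Tables and figures were made with matplotlib 3.10.9, scipy 1.17.1, pandas 2.3.3 and numpy 2.4.6 under Python 3.11.15.

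The groups of miRNAs and the miRNAs named were chosen with earlier results of these data known. The rule for naming took the 12 largest rises and falls detected on all 8 arrays, the 6 largest bounds each way, the members of the shorter lists, the 2 called members with the largest change each way of the Sfmbt2, Dlk1-Dio3, starred and numbered lists, and seed groups or clusters called in both directions. It gave 135 miRNAs, of which 98 are described singly, by a value, a bound or saturation, and the others by counts and ranges, and 13 more were named after their values were seen. Alternatives changed 1 choice at a time, except the deposited values (signal, arrays normalized and miRNAs tested) and the analysis of variance without adjustment: the filter on dim miRNAs, the scaling, the processed spot signal (mean log2 over spots), normexp with an offset of 50, the deposited log2 values, all 12 arrays together, a floor of 0.1 or 8, the methods' analysis of variance with and without adjustment, an intensity trend, the replicate number as a block, an adjusted p under 0.05, and each array left out. Precision rests on 4 arrays per day, and for miRNAs near the background also on the signal, which had a median of 6.71 to 16.5 times the local background among detected miRNAs.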

Additional observations from a re-analysis of the deposited data

Results flagged for a closer look

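In 23 of 205 groups of 4 arrays (11.2%) 1 array lay far from the other 3, judged by its gap to the nearest of them as a share of the group's range. Chance flags about 1 in 20 among independent normal values. These values can be at the floor or the same on several arrays, so that rate does not hold here and no excess is read from the 11.2%. Day 5 replicate 4, the array with the fewest miRNAs detected, was the distant one in 6 of the 23, with shares of 0.976 for miR-5097, 0.905 for miR-489, 0.921 for miR-3474, 0.833 for miR-155, 0.905 for miR-34c and 0.908 for miR-674. Day 5 replicate 3 was distant for miR-378 (1.000), miR-2138 (0.903), miR-19a (1.000) and miR-24-1* (0.833), and day 5 replicate 1 for miR-125b-5p (1.000). Among the day 1 arrays, replicate 1 was distant for miR-25 (1.000) and replicate 2 for miR-193 (0.880), miR-200b (0.910), miR-30a* (1.000), miR-1983 (1.000) and miR-1981 (1.000). Replicate 3 was distant for miR-1897-5p (1.000), miR-2138 (0.970) and miR-99b (0.838), and replicate 4 for miR-2137 (0.943), miR-126-3p (0.889) and miR-27b (1.000). In the groups with a share of 1.000 the other 3 arrays hold the same value, either the floor or the value that quantile normalization gives to arrays on which a miRNA has the same rank. The range within such a group can be small, as for miR-378 at day 5, where the 4 arrays lay between 15.03 and 15.08 (log2).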

How the results depend on the processing

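Of the changes of the named miRNAs, taken under each alternative, 2540 kept their direction and their side of the threshold, 188 lost and 46 gained a call, and 4 reversed. The counts of changed miRNAs are not part of this tally. With detection required on all 8 arrays 152 miRNAs were left, of which 105 passed the adjusted p and 55 changed, 29 up and 26 down. The rises numbered 44 with the 75th percentile of miRNAs detected on all 8 arrays and 46 without normalization, the falls 46 after normexp with an offset of 50, and the deposited log2 values gave 94 changes with 45 rises over 227 miRNAs. With 1 array left out, 159 to 191 miRNAs passed the adjusted p and 136 to 154 changed, 70 to 81 up and 57 to 81 down. All 4 reversed values belong to differences near 0 that passed no test, miR-145 with -0.12 (0.0061 with the processed spot signal, and with single arrays left out -0.502 to 0.0482, above 0 without day 5 replicate 2 and without day 5 replicate 3) and miR-29b-1* with -0.23 (0.23 with the processed spot signal). The causes were not tested.

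The replicate number is also the slide column on both days. It was not taken to pair the cultures, since deviations of same-numbered arrays from the means of their days correlated by -0.43, 0.62, 0.15 and 0.33, and 3 of the 8 arrays correlated best with their own number. With the replicate number as a block 154 miRNAs passed the adjusted p and 136 changed, 75 up and 61 down. Signal over background limits the miRNAs near detection, and the floor decides the size of change of the 91 detected on no array of a day.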
